A study of Mus musculus with 6 samples.

Results

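The genes described here encode the proteins of the cytosolic ribosome, the particle that translates nuclear-encoded mRNA. Members were taken by gene symbol from the protein-coding rows of the table: symbols made of Rpl or Rps, a number and at most a short suffix, together with Rpsa, Rplp0, Rplp1 and Rplp2. This gave 84 genes, 51 of the large subunit and 33 of the small subunit, of 43346 genes in all. The rule used no measured value. It leaves out proteins of the ribosome with other kinds of symbol, such as Fau, Rack1 and Rpl36al, which are given apart.

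RNA was sequenced from the gastrocnemius, a calf muscle, of male mice aged 6 months, in 6 samples, 3 in each group. All were Vdrfl/fl.actin iCre mice: exon 3 of Vdr, the vitamin D receptor gene, lay between loxP sites, and the Tg(ACTA1-cre/Esr1*) transgene carried an inducible Cre recombinase under the skeletal actin promoter, so that recombination concerns muscle fibres and not the other cells of the tissue. The knockout group received tamoxifen at 100 mg/kg in 75 microliters by intraperitoneal injection for 5 days, and the vehicle group received 10% ethanol in corn oil. All ate the same chow, which held calcium at 0.81% and vitamin D3 at 3.4 IU/g. Muscle was taken once strength and glucose tolerance had been tested, 10 days after dosing ended. Tamoxifen, active Cre and loss of Vdr came together in the knockout group and cannot be told apart here; the mice with floxed Vdr and no Cre that also received tamoxifen were not analysed here.

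The libraries held between 30486874 and 39909535 counted reads. Vdr itself had 52, 27 and 40 counts in knockout replicates 1 to 3 and 46, 48 and 61 in the vehicle replicates, a log2 fold change of -0.37 (SE 0.37, edgeR adjusted p = 0.85); counts are summed over the whole gene, and the deleted exon was not counted apart. Markers of mature muscle fibre (14 of 14 in the table) summed to between 108900 and 255300 CPM (counts scaled to a common library size with TMM factors), with the lowest sum in knockout replicate 2. This library also had the highest sum of slow-twitch fibre markers, 32830 CPM against 1233 to 10350 CPM in the others. Of the lymphocyte markers, Ms4a1 was at 0 in every library.

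A ribosome joins a large and a small subunit: the small subunit reads the mRNA, and the large subunit joins amino acids. Their proteins are needed in matched amounts, and their mRNAs are known for a terminal oligopyrimidine (TOP) tract, a run of C and T bases at the start of the transcript, through which mTORC1 controls their translation as a group. Skeletal muscle is known for a restricted paralog, Rpl3l, which stands in for Rpl3 in the ribosomes of striated muscle.

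To show this start-site feature, the promoter table of RefSeq (GRCm38.p6) was matched by symbol, and 63 of the 84 members had a window. A run of at least 8 C or T bases on the sense strand, reaching within 10 bases of the annotated start, was present in 27 of these 63 windows (42.9%), against 2115 of 15955 protein-coding genes (13.3%). The share was 16 of 39 for the large subunit and 11 of 24 for the small subunit. The lines below give 15 bases on each side of the start for 5 members with such a run and 3 without, with the longest run in capitals where it has at least 5 bases. A run is a description of these letters, and where none is found that says only that none lies in this window.
Rpl7a, chr2:26910792-26910821, plus strand: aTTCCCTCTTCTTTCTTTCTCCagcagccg
Rps6, chr4:86857353-86857382, minus strand: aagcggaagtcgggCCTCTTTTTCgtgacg
Rps27, chr3:90213634-90213663, minus strand: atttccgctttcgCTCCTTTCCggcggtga
Rplp2, chr7:141447636-141447665, plus strand: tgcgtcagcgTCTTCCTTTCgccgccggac
Rpl22l1, chr3:28805493-28805522, plus strand: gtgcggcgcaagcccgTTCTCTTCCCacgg
Rpl3l, chr17:24727811-24727840, plus strand: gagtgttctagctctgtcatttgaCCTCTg
Rpl7l1, chr17:46782642-46782671, minus strand: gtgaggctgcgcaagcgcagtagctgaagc
Rps4x, chrX:102189377-102189406, minus strand: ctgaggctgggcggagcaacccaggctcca
The run reached 21 bases in Rpl7a and 10 bases in Rps6, Rplp2 and Rpl22l1. The muscle paralog Rpl3l and the paralog Rpl7l1 had runs of 5 and 2 bases at most.

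No ribosomal protein mRNA that could be tested passed the test between knockout and vehicle muscle. Of the 84 genes, 82 passed the filter on low counts. None of the 82 had an adjusted p under 0.05 in edgeR's quasi-likelihood test (Benjamini-Hochberg adjustment over all 15583 genes tested), where the share over all genes was 0.0%. At an unadjusted p under 0.05 the count of members was also 0, against 7.44% of all genes tested. DESeq2 called none of the members either, with 0.7% of all genes called, and gave none an unadjusted p under 0.05, against 8.43% of all genes.

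The estimates lay close to 0. Of 49 large subunit members tested, 23 had a higher and 26 a lower estimate in knockout muscle. Their log2 fold changes had a median of -0.02 and ranged from -0.29 to 0.38. Of 33 small subunit members, 19 were on the higher and 14 on the lower side, with a median of 0.01 and a range from -0.24 to 0.87. Over all genes tested the median was 0.02, and 52.9% had a higher estimate. These splits moved with some settings. With library totals only, 37 of 49 and 28 of 33 members were on the higher side (65.3% of all genes), while DESeq2's size factors gave 22 of 49 and 16 of 33 and upper-quartile factors the same counts as TMM. With limma-voom, which also weights the libraries by quality, 11 of 49 and 6 of 33 were on the higher side (51.9% of all genes). An absolute log2 fold change over 0.25 was rare among members, since 73 of the 82 stayed under it, while 44.0% of all genes tested were beyond it.

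**Figure D1:**
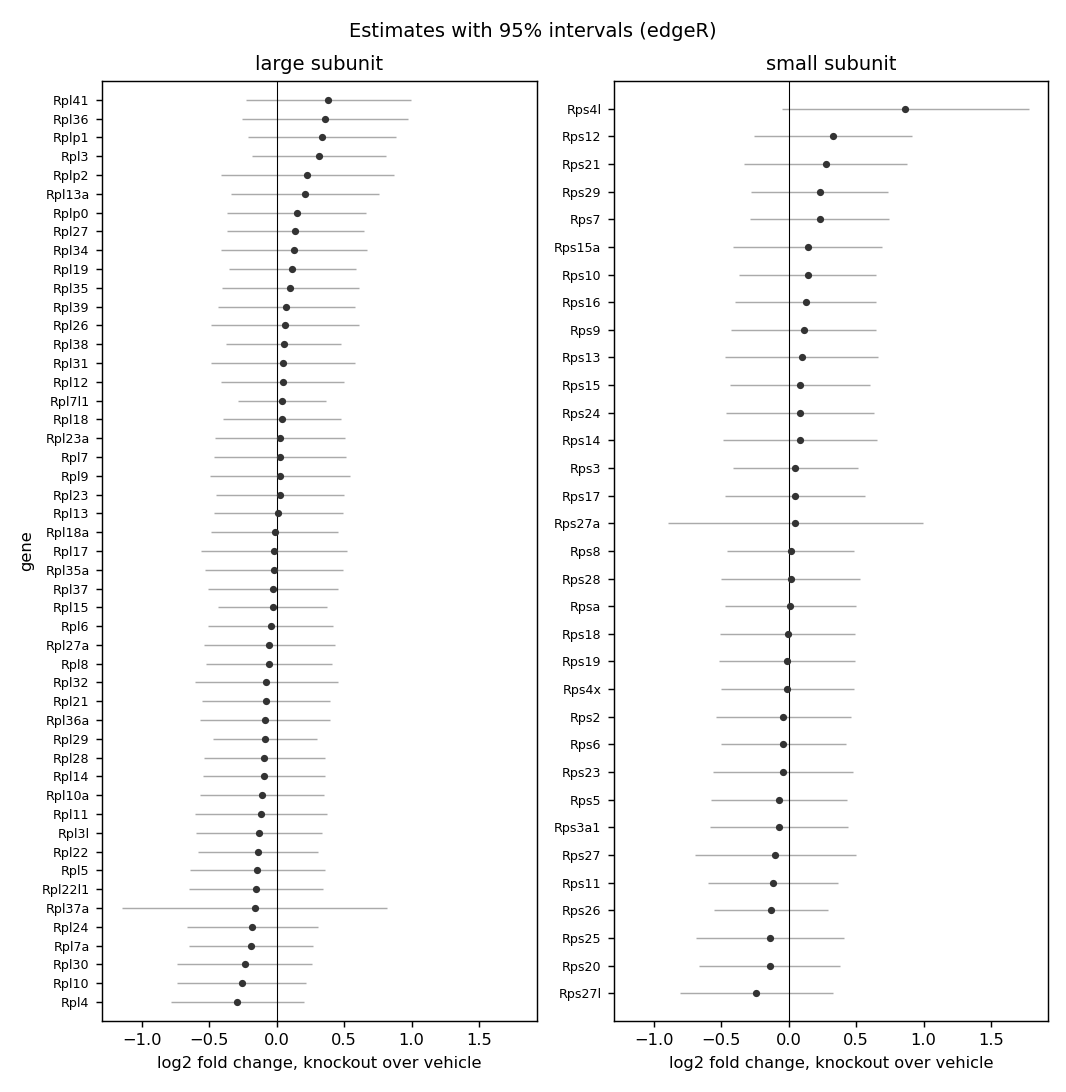
Estimated log2 fold change (knockout over vehicle, x axis) of the 82 members tested, one gene per row, large subunit left and small subunit right, with points for estimates and lines for 95% intervals from edgeR. Every interval includes 0. The widest intervals belong to Rps4l, Rps27a and Rpl37a.

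The size of difference that these 6 libraries could show was limited. The median standard error of a member's log2 fold change was 0.22. In 80 of the 82 members the 95% interval lay within 2-fold in both directions, and in 39 it lay within 1.5-fold. The exceptions to the 2-fold bound were Rpl37a, whose interval reached down to -1.15, and Rps4l, whose interval reached up to 1.78. Differences inside these intervals remain possible with this number of samples. The intervals are not limits of detection, since edgeR called no gene in the whole table (smallest adjusted p = 0.058), so a larger difference could also go uncalled. The labels number each sample and do not state that each comes from its own mouse; p-values measure the spread between these samples.

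What varied was the library. The members summed to 22343, 27564 and 18495 CPM in knockout replicates 1, 2 and 3 and to 20920, 20898 and 26750 CPM in vehicle replicates 1, 2 and 3. Knockout replicate 2 and vehicle replicate 3 were the high libraries, knockout replicate 3 was the lowest, and the groups overlapped. The group means were 22800 ± 4552 CPM (SD, n = 3) for knockout and 22860 ± 3373 CPM (SD, n = 3) for vehicle. As a share of all counted reads, the members took between 1.97% and 3.12%.

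Both subunits took part in this shift. The large subunit members summed to 12812, 15355 and 10717 CPM in the knockout libraries and to 12118, 12019 and 15404 CPM in the vehicle libraries. The small subunit members gave 9532, 12209 and 7778 CPM in the knockout libraries and 8802, 8878 and 11346 CPM in the vehicle libraries. The ratio of the large to the small subunit sum was 1.26 in knockout replicate 2 and between 1.34 and 1.38 in the other 5 libraries.

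Nearly every member followed its neighbours. Relative to each gene's own mean over the 6 libraries, the median member stood at 0.29 on the log2 scale in knockout replicate 2 and at 0.24 in vehicle replicate 3. It stood at -0.28 in knockout replicate 3, at -0.12 in vehicle replicates 1 and 2, and at -0.01 in knockout replicate 1. All 82 members had their highest CPM in knockout replicate 2 (46 genes) or vehicle replicate 3 (36 genes), which held for 47.8% of all genes tested. The lowest CPM was in knockout replicate 3 for 62 of the 82, against 13.8% of all genes. The median SD of a member within groups was 0.29 on the log2 scale. Once each library's median over the members was subtracted, the median SD of a member over all 6 libraries was 0.12. These are different measures, and the subtracted median came from the same 82 members, so a smaller spread was built in.

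**Figure D2:**
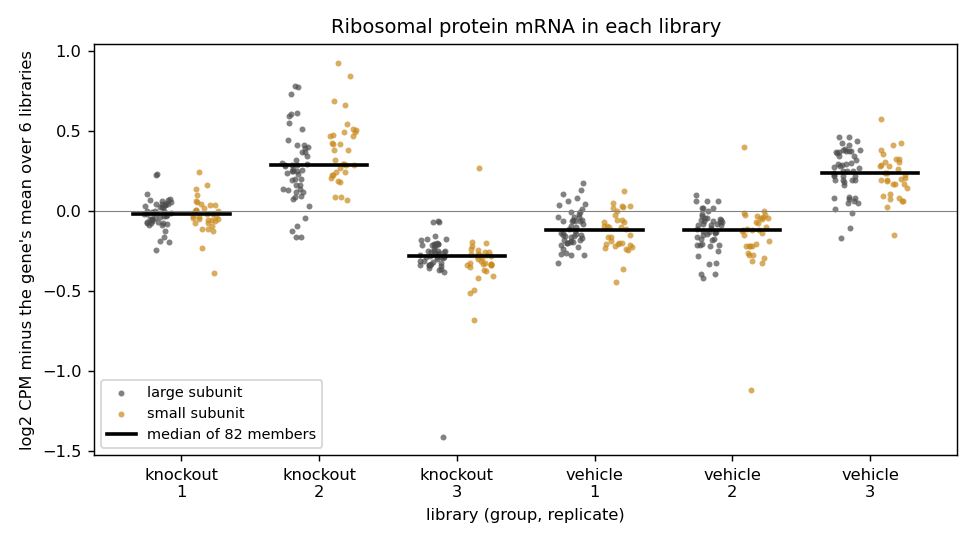
Log2 CPM of each member minus its own mean over the 6 libraries (y axis), by library (x axis), grey for the large and ochre for the small subunit, with bars for the median of the 82 members. Knockout replicate 2 and vehicle replicate 3 stand above 0 and knockout replicate 3 below it, across the 2 groups.

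Leaving out any of these 3 libraries moved the medians of both subunits by over 0.1 and still gave no call. Without knockout replicate 2 the medians were -0.14 for both subunits, and 4 of 49 and 3 of 33 members were on the higher side. Leaving out vehicle replicate 3 gave medians of 0.12 and 0.14, with 40 of 49 and 31 of 33 members on the higher side, and leaving out knockout replicate 3 gave 0.11 and 0.15, with 38 of 49 and 29 of 33.

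Several other gene groups were measured beside this shift, and their part in it was not tested. The mitochondrial ribosomal proteins, 77 in all, build the separate ribosome inside mitochondria. Those that passed the filter had median deviations of 0.27 in knockout replicate 2, 0.15 in vehicle replicate 3 and -0.20 in knockout replicate 3. These are the same signs as the cytosolic members in those libraries. The lowest mitochondrial median was in vehicle replicate 2, at -0.23. It was 0.03 in vehicle replicate 1 and 0.007 in knockout replicate 1, where the cytosolic medians were -0.12 and -0.01. Macrophage and myeloid markers summed to 177.4 CPM in knockout replicate 2 and 169.4 CPM in knockout replicate 3, the libraries with the highest and the lowest ribosomal protein sum, against 44.6 to 81.8 CPM in the other 4; 12 of 12 tested had higher estimates in knockout (52.9% of all genes), and 9 had an unadjusted p under 0.05 (7.44% of all genes), none with an adjusted p under 0.05. Fibroblast markers likewise summed to 1593 and 1342 CPM in these libraries, against 588.2 to 829.2 CPM in the others. Adipocyte markers, with 8 of 8 higher and 6 at an unadjusted p under 0.05, summed to 3478, 4476 and 3888 CPM in knockout and 2992, 2833 and 3360 CPM in vehicle libraries. Slow-twitch markers were highest in knockout replicate 2 and lowest in vehicle replicate 3, both of them high in ribosomal protein mRNA. In whole muscle, fewer cells of a type and less RNA per cell cannot be told apart.

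**Figure D3:**
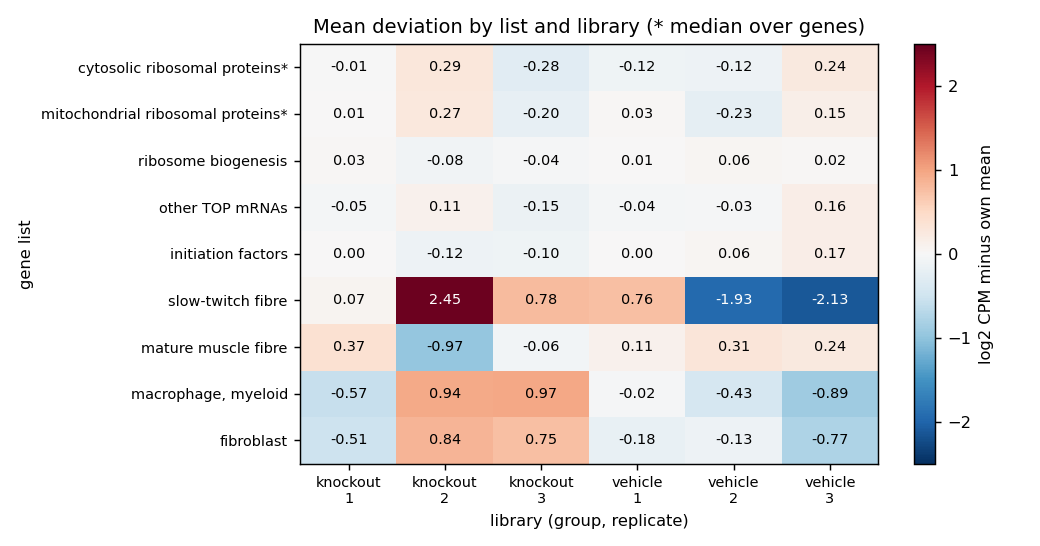
Mean deviation of log2 CPM from each gene's own mean, by gene list (rows) and library (columns), with the value in each cell; rows with a star give the median over genes. The ribosomal protein rows are positive in knockout replicate 2 and vehicle replicate 3, where the slow-twitch row reads 2.45 and -2.13.

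The stalk of the large subunit, which recruits elongation factors, is built of Rplp0, the base, and Rplp1 and Rplp2, the acidic arms. Rplp1 (chr9:61913284-61914538) had 305.4, 441.3 and 251.7 CPM in the knockout libraries and 299.8, 221.9 and 270.7 CPM in the vehicle libraries. Its high value was knockout replicate 2, and the groups overlapped, with a log2 fold change of 0.33 (SE 0.24, adjusted p = 0.79 in edgeR). Rplp2 had 77.8, 158.0 and 72.6 CPM against 91.5, 79.5 and 92.6 CPM, so that knockout replicate 2 alone lay above the others and the estimate of 0.23 turned to -0.23 without it. Rplp0 ranged from 632.6 to 972.6 CPM over the 6 libraries, with a log2 fold change of 0.15 (SE 0.23). All 3 stalk genes had their highest level in knockout replicate 2.

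Among other large subunit genes, the smallest unadjusted p belonged to Rpl3, described with its paralog below, and to Rpl41, which encodes a very short basic peptide. Rpl41 (chr10:128548114-128549305) had 246.3, 396.7 and 195.4 CPM in knockout and 215.3, 178.7 and 249.8 CPM in vehicle libraries. The log2 fold change was 0.38 (SE 0.27, adjusted p = 0.78 in edgeR), with overlapping groups. Rpl36 gave 90.8, 163.1 and 79.9 CPM against 102.9, 72.5 and 84.9 CPM, again with knockout replicate 2 as the one high library, and an estimate of 0.36 (SE 0.27) that was -0.02 without it. The estimates of Rpl41 and Rplp1 were 0.04 and 0.08 without that library. On the other side was Rpl4, which lines the exit tunnel of the large subunit.

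Rpl4 (chr9:64173387-64178562) had 909.7, 823.2 and 776.9 CPM in knockout libraries and 883.3, 989.9 and 1204 CPM in vehicle libraries. The groups overlapped through vehicle replicate 1, and the log2 fold change was -0.29 (SE 0.22, adjusted p = 0.79 in edgeR). Rpl10, needed for the joining of the subunits, had an estimate of -0.26 (SE 0.21), with 335.9 to 387.3 CPM in knockout and 362.1 to 541.5 CPM in vehicle. Rpl30 and Rpl7a gave -0.24 (SE 0.22) and -0.19 (SE 0.21). Vehicle replicate 3 was the highest library of Rpl4, Rpl10, Rpl30 and Rpl7a.

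Rpl5 and Rpl11 bind the smallest ribosomal RNA of the large subunit and, when free of the ribosome, Mdm2, the ligase of p53. Rpl5 had 331.7, 387.7 and 296.1 CPM against 306.2, 347.2 and 468.4 CPM, with a log2 fold change of -0.14 (SE 0.22). Rpl11 ranged from 142.3 to 237.5 CPM, with an estimate of -0.12 (SE 0.22). Rpl13a, known for a role outside the ribosome in silencing inflammatory mRNAs, had 316.1 to 562.5 CPM in knockout and 330.9 to 396.9 CPM in vehicle, an estimate of 0.21 (SE 0.24). None of these passed the test.

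In the small subunit, Rps6 is the substrate of the S6 kinases below mTORC1. Rps6 had 231.8, 294.6 and 201.4 CPM in knockout and 232.5, 228.0 and 287.2 CPM in vehicle libraries, an estimate of -0.04 (SE 0.21). Rpsa, which is also known as a laminin receptor, gave 681.4, 644.7 and 513.7 CPM against 596.6, 532.9 and 694.8 CPM, an estimate of 0.01 (SE 0.22). The groups were interleaved for both genes.

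Of the small subunit genes with the smallest p after Rps4l, Rps12 had 244.9, 394.1 and 202.2 CPM in knockout and 210.5, 202.1 and 257.6 CPM in vehicle libraries. Its log2 fold change was 0.33 (SE 0.26, adjusted p = 0.80 in edgeR), and knockout replicate 2 was the high library. Rps21, Rps29 and Rps7 had estimates of 0.27, 0.23 and 0.23 with standard errors between 0.23 and 0.27. Each of these had its highest level in knockout replicate 2, and their groups overlapped. Without that library the estimate of Rps21 was -0.05, that of Rps29 0.03 and that of Rps12 0.00051.

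Levels between genes were compared per length, on the deposited FPKM scale (counts divided by listed gene length and library total). The highest means over the 6 libraries in the small subunit were Rps27 with 1282 FPKM, Rps25 with 657.5 FPKM, Rps15 with 542.3 FPKM and Rps12 with 535.7 FPKM. In the large subunit they were Rpl4 with 651.9 FPKM, Rplp1 with 609.1 FPKM, Rpl32 with 604.2 FPKM and Rplp0 with 461.5 FPKM. Rps27 stayed above the mean of Rps25 in every library, with a lowest value of 939.9 FPKM, and Rpl32 above the mean of Rplp0, with a lowest value of 483.6 FPKM. For the other neighbours in this order, the range over libraries spans the mean of the next gene.

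At the low end, Rpl10l, a paralog known from testis, was listed at 0 in all 6 libraries, where 3 counts would be 0.0752 to 0.0984 CPM. Rpl39l, another such paralog, had 3, 4, 0, 0, 3 and 0 counts across knockout replicates 1 to 3 and vehicle replicates 1 to 3, and neither gene was tested. Rps4l had a mean of 1.32 FPKM and Rpl7l1 18.0 FPKM. Rpl3 with 22.6 FPKM was the next lowest large subunit gene. Rps15a with 40.8, Rps19 with 42.9 and Rps10 with 65.1 FPKM were low on this scale. Their listed lengths of 6262, 4685 and 1937 bases are longer than their RefSeq-linked mRNAs of 5179, 633 and 522 bases. Per kilobase of that mRNA, Rps19 stood at rank 41 in place of 77 among the members and Rps10 at 58 in place of 70. Rps15a stood at 80 in place of 79, a rank that rests on its linked transcript of 5179 bases. An annotated near copy of Rps15a matches 393 bases of its coding sequence. With no length correction Rps15a had 193.1 to 349.6 CPM, and its rank over a shorter transcript was not tested.

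The muscle paralog was the main form of its pair in every library. Rpl3l (chr17:24727820-24736143) had 280.7, 297.7 and 270.1 FPKM in knockout libraries and 311.3, 243.1 and 319.6 FPKM in vehicle libraries. Rpl3 (chr15:80077794-80091868) had 18.3, 37.7 and 22.1 FPKM in knockout and 18.0, 17.6 and 22.1 FPKM in vehicle libraries. Knockout replicate 2 stood out by its Rpl3 level, while its Rpl3l level lay inside the range of the others.

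The FPKM ratio of Rpl3l to Rpl3 was 15.4, 7.90 and 12.2 in knockout and 17.3, 13.8 and 14.4 in vehicle libraries, so that Rpl3l made up between 88.8% and 94.5% of the pair. The listed length of Rpl3, 3119 bases, exceeds its RefSeq-linked mRNA of 1351 bases, and the ratio of counts with no length correction was between 4.16 and 9.11. Mean log2 ratios were 3.51 ± 0.49 (SD, n = 3) and 3.92 ± 0.17 (SD, n = 3). The difference of -0.41 had p = 0.3 in a two-sided exact permutation test, which cannot go below 0.1 with 3 against 3. Without knockout replicate 2 the difference was -0.14, and without knockout replicate 1 it was -0.62. By the fit on counts, Rpl3 had a log2 fold change of 0.31 (SE 0.22, adjusted p = 0.78 in edgeR) and Rpl3l of -0.13 (SE 0.21, adjusted p = 0.91).

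A second pair of a restricted and a common form in the translation machinery showed knockout replicate 2 low as well. The ratio of Eef1a2, the elongation factor of adult muscle, to the common form Eef1a1 was 2.48, 1.10 and 1.81 in knockout and 2.06, 2.52 and 2.19 in vehicle libraries. Eef1a1 itself had 354.9, 676.1 and 471.8 CPM in knockout and 346.1, 353.4 and 337.7 CPM in vehicle libraries. Its groups did not overlap, as in 12.3% of all genes tested. The log2 fold change was 0.53 (SE 0.25, adjusted p = 0.68 in edgeR), which does not pass the test. Knockout replicate 2 also had the lowest mature fibre sum and the highest slow-twitch sum, and the part of these in the ratios was not tested.

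**Figure D4:**
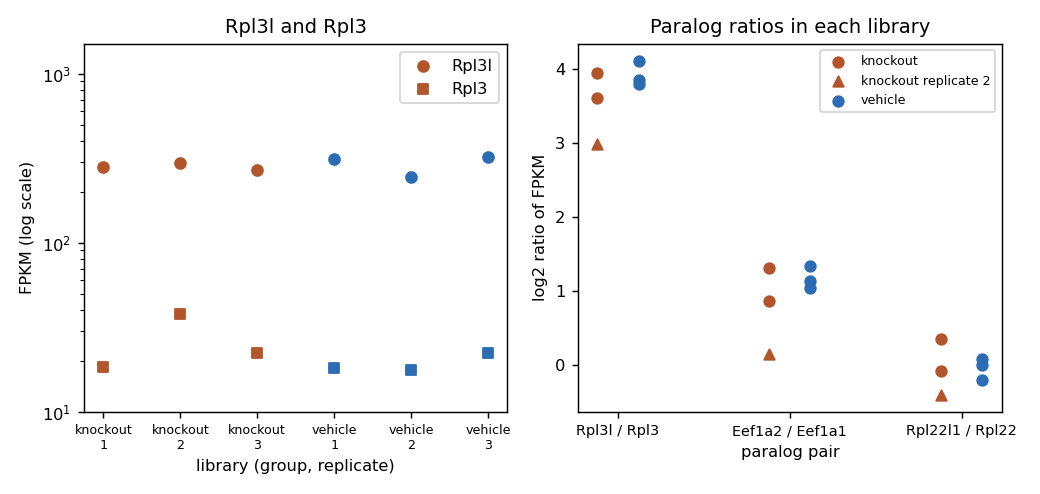
Left, FPKM (log axis) of Rpl3l (circles) and Rpl3 (squares) in each library. Right, log2 ratio of FPKM for 3 paralog pairs, brown for knockout, blue for vehicle and a triangle for knockout replicate 2, which is the lowest point of each pair.

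The other tested pairs differed in how even they were across libraries. Rpl22l1 and Rpl22 had FPKM ratios of 1.28, 0.755 and 0.947 in knockout and 0.867, 0.997 and 1.05 in vehicle libraries. The mean log2 ratio was -0.04 in both groups. The level of this ratio depends on the listed lengths, 1989 and 2911 bases, which exceed the RefSeq-linked mRNAs of 525 and 2051 bases. Per kilobase of that mRNA, mean CPM was 212.7 for Rpl22l1 and 81.55 for Rpl22. By FPKM, Rps27l, a target of p53, made up 7.80% to 9.56% of its sum with Rps27, and Rpl7l1 made up 7.5% to 9.17% of its sum with Rpl7. These shares depend on listed length, which for Rps27l and Rps27 is 816 and 255 bases, against RefSeq-linked mRNAs of 499 and 345 bases. The ratio of Rps27l to Rps27 counts, with no length correction, was between 0.27 and 0.337. Per kilobase of that mRNA, mean CPM was 198.7 for Rps27l and 946.8 for Rps27, and 17.96 for Rpl7l1 and 457.2 for Rpl7. Rps27l had an estimate of -0.24 (SE 0.25) and Rpl7l1 of 0.04 (SE 0.15). Rpl7l1 had the smallest standard error of all members.

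Rps4l, a paralog of Rps4x on another chromosome (chr6:148354656-148355598), was the one member whose groups did not overlap, where 12.3% of all genes tested had no overlap. It had 1.34, 2.03 and 1.36 CPM in knockout and 1.05, 0.521 and 1.02 CPM in vehicle libraries, from 46, 70, 51, 34, 19 and 39 counts. The knockout libraries were all higher, with a log2 fold change of 0.87 (SE 0.41, adjusted p = 0.68 in edgeR), which does not pass the test. Its unadjusted p was under 0.05 with library totals only and in limma on FPKM, where it did not pass after adjustment. Rps4x, at 406.6 to 585.3 CPM, had an estimate of -0.01 (SE 0.22), and Rps4l never exceeded 0.64% of the pair. Rps4l had no RefSeq-linked transcript, and its sequence was not compared with Rps4x. Whether some of its few counts come from reads of Rps4x was not tested.

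Rps27a and Rpl37a were the most variable members within groups, with SDs of 0.68 and 0.78 on the log2 scale, against a median of 0.29. Rps27a makes a ubiquitin fused to a small subunit protein, and Rpl37a is a zinc-binding large subunit protein. Rps27a (chr11:29545846-29548109) had 4927, 12328 and 4380 counts in knockout and 4445, 9046 and 8095 counts in vehicle libraries. Rpl37a (chr1:72711260-72713809) had 8461, 11153 and 2966 counts in knockout and 7197, 7800 and 11120 counts in vehicle libraries. Rpl37a was low in knockout replicate 3 alone.

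Both genes have an annotated pseudogene copy that differs by 1 base over the aligned coding sequence (GENCODE M21 transcripts, the mm10 build), and in some libraries the copy was high where the member was low. The pairs are shown because a read that misses this base is the same for both genes. The base that differs is in capitals, and its number in the text counts from 1 at the start of the member's transcript.
Rps27a, chr11:29545976, minus strand, coding exon 6: tgtccttctgatgaAtgtggtgctggagt
Rps27a-ps2, chr9:83410034, plus strand: tgtccttctgatgaGtgtggtgctggagt
Rpl37a, chr1:72712207, plus strand, coding exon 3: aaaacagtggccggTggggcctggaccta
Gm4149, chr13:75645093, plus strand: aaaacagtggccggCggggcctggaccta
The substitution is A661G between Rps27a and Rps27a-ps2 (1 mismatch in 467 aligned bases) and T229C between Rpl37a and Gm4149 (1 mismatch in 276 aligned bases).

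Rps27a-ps2 had 3714, 1335 and 3269 counts in knockout and 3106, 1139 and 4279 counts in vehicle libraries. It was lowest in knockout replicate 2 and vehicle replicate 2, the libraries where Rps27a itself had its highest counts, while in vehicle replicate 3 both were high. Gm4149 had 1763, 2500 and 5496 counts in knockout and 1564, 1691 and 2250 counts in vehicle libraries, with its highest count in knockout replicate 3, where Rpl37a was lowest. Adding all near-identical copies to the member, an alternative chosen after seeing the data, changed the within-group SD from 0.68 to 0.37 for Rps27a and from 0.78 to 0.32 for Rpl37a. The log2 ratio of group means went from 0.05 to 0.02 for Rps27a and from -0.17 to 0.08 for Rpl37a. Treatment of reads that map to several places is not given in the sources used here, and the part of read assignment in these counts was not tested.

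**Figure D5:**
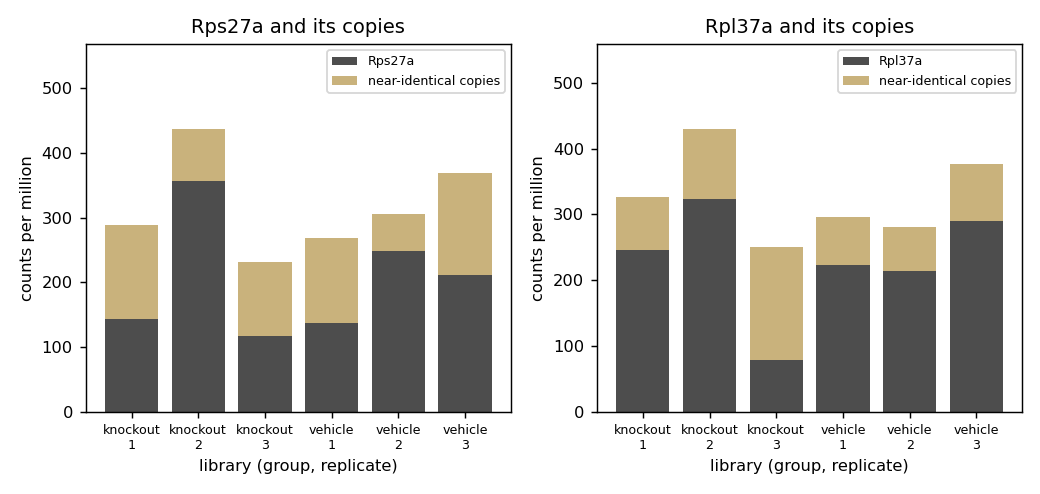
CPM in each library of Rps27a (left) and Rpl37a (right), dark bars, with the sum of their near-identical annotated copies stacked on top. Rps27a alone ranges from 117.0 to 356.8 CPM and Rpl37a alone from 79.2 to 322.8 CPM, and with copies the sums range from 230.8 to 437.3 CPM and from 249.8 to 430.2 CPM.

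Such copies are common among ribosomal protein genes. Of 83 members with a RefSeq-linked coding transcript, 75 had at least 1 annotated gene matching at least 90 bases of their coding sequence at 95% identity or more, and 74 had such a copy with counts. In 48 members the copies held more than 10% of the member's own counts, with a median of 15.1% over members with a copy and the highest shares in Rps27a (56.3%), Rpl37 (45.1%) and Rpl38 (45.1%). These shares use all counts of each copy, some of them protein-coding genes such as BC004004 for Rpl21 and Wdr89 for Rplp2. They do not measure how many reads fit both genes, which was not tested. For most members, adding the copies mattered little to the spread: the median within-group SD was 0.28 without and 0.29 with copies, and the sign of the group difference was other in 4 genes. Gm28037, which overlaps Rpl24 on the genome, had a count of 99.6% to 99.8% of that of Rpl24 in each library.

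Proteins of the ribosome outside the symbol rule were read in the same way. Rack1, a signalling scaffold on the small subunit, had 408.8, 473.7 and 338.4 CPM in knockout and 414.7, 400.6 and 506.3 CPM in vehicle libraries, an estimate of -0.11 (SE 0.21). Its highest values were in vehicle replicate 3 and knockout replicate 2, and the groups overlapped. Fau and Rpl36al had estimates of 0.02 and -0.30. None of these passed the test.

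The wider machinery that makes and uses ribosomes was read from lists of known genes, and no gene in any of them had an adjusted p under 0.05. Over all genes tested, 52.9% had a higher estimate and 7.44% had an unadjusted p under 0.05 in edgeR. Among 46 ribosome biogenesis genes, 15 had higher and 31 lower estimates (median log2 fold change -0.09), and 1 had an unadjusted p under 0.05. This was Rrs1, an assembly factor of the large subunit, with 13.1, 15.7 and 11.4 CPM in knockout and 8.49, 9.81 and 8.50 CPM in vehicle libraries (estimate 0.58, SE 0.19, adjusted p = 0.63 in edgeR). Of 35 initiation factors, 4 had higher and 31 lower estimates (median -0.14); Eif3j1 had the smallest p, with an estimate of -0.59 (SE 0.18, adjusted p = 0.60). Other TOP mRNAs counted 5 higher and 16 lower of 21, and elongation factors 4 higher and 5 lower of 9. How the splits of these lists move when a library is left out was not tested.

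Of 25 tested genes of mTORC1 signalling and the control of ribosomal protein mRNAs, 11 had higher and 14 lower estimates. Myc, a transcription factor known to drive ribosome synthesis, had 12.0, 7.24 and 11.6 CPM in knockout and 14.4, 28.8 and 27.2 CPM in vehicle libraries. All knockout libraries were below all vehicle libraries, with an estimate of -1.20 (SE 0.29, adjusted p = 0.53 in edgeR), which does not pass the test. Myc and Gabpa, which binds promoters of ribosomal protein genes, were the 2 of 25 genes with an unadjusted p under 0.05, a share near the 7.44% of all genes tested. Among 7 genes of the nucleolar stress response to free ribosomal proteins, 1 had a higher and 6 lower estimates (52.9% of all genes tested were higher). Cdkn1a, a p53 target, gave -0.66 (SE 0.27, adjusted p = 0.65) and Gnl3, a nucleolar GTPase, -0.49 (SE 0.20, adjusted p = 0.65). Of 14 tested genes of ribosome quality control, 5 had higher and 9 lower estimates, none with an unadjusted p under 0.05.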

How the data were processed

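Per the labels' protocols, libraries were made with a stranded mRNA kit from flash-frozen muscle; the submitters' processing notes name bcl2fastq, STAR (2.6.1c), featureCounts, Subread (1.5.1) and the build mm10, without their roles. Strand setting, annotation release and handling of multi-mapping reads were not given in the sources used here. The table the authors deposited gives raw read counts and FPKM per gene. The deposited FPKM equal the count divided by listed length (plus 1 base) and library total, within 0.1% for 100% of values over 0.01.

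Counts were tested with edgeR 4.0.16 in R 4.3.3 (TMM factors, filterByExpr with a minimum count of 10 and total of 15, robust quasi-likelihood test, Benjamini-Hochberg over 15583 genes, threshold 0.05) on 3 knockout and 3 vehicle libraries without covariates; groups came from the phenotype labels. CPM are counts over TMM-scaled totals. The paralog ratio was tested by exact permutation (SciPy 1.17.1). Alternatives used other scalings and filters, DESeq2 1.42.0, limma 3.58.1 on voom values or on log2(FPKM + 0.1) and log2(FPKM + 1), and leaving out each library. Near copies were found with BLAST 2.17.0. The edgeR script was tested on simulated data.

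Members and lists were chosen with earlier results of these data known. Named genes are those of smallest p (8 large, 6 small subunit), fixed paralog pairs, stalk genes and Rpsa, the 4 highest and 4 lowest FPKM and 3 largest SDs in each subunit, 6 genes for known roles, and up to 4 genes of smallest p from each other list. An item covered by this rule is not reported here.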

Additional observations from a re-analysis of the deposited data

How the results depend on the processing

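No ribosomal protein gene was called under any of the 15 alternatives. The number of genes called in the whole table, 0 with edgeR and TMM (1159 at an unadjusted p under 0.05), was 4 with DESeq2's size factors in edgeR, 29 with no low-count filter, 109 with DESeq2's Wald test and 4 with limma-voom quality weights, and between 0 and 24 when a library was left out (24 without knockout replicate 1 and 6 without knockout replicate 2). The median log2 fold change ranged from -0.14 to 0.12 for the large and from -0.14 to 0.15 for the small subunit, both within 1 SD of the library medians (0.25). The knockout minus vehicle difference in the mean log2 ratio of Rpl3l to Rpl3 stayed negative in every setting. It lay between -0.62 and -0.14, with p between 0.2 and 0.6 in the two-sided exact permutation test. With a library left out, the exact permutation test cannot go below 0.2, so those settings cannot decide whether the groups differ. Of 555 estimates of the 37 named members tested, 4 moved by at least 1 within-group SD, 3 of Rpl7l1 and 1 of Rplp2. No paired analysis was possible because the labels give no replicate numbers that the groups share. Of the 84 members, 81 had at least 1000 counts in every library, so counting error was small beside the spread between libraries.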

Other observations

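Within the members, transcript length and base composition ran weakly with the estimates, as a description across 81 genes that share the same 6 libraries. Spearman's rho between the log2 fold change and the length of the RefSeq-linked mRNA was -0.20, and with listed gene length -0.09. With the GC content of the mRNA it was 0.35, and 0.39 in the large and 0.24 in the small subunit. The part of knockout replicate 2 not shared by the median member had a rho of -0.41 with mRNA length and -0.23 with listed length. Of 41 members with an mRNA of at most 791 bases, 25 had a higher estimate in knockout (median 0.04), against 16 of 40 longer ones (median -0.03).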
